A study of Mus musculus with 6 samples.

Results

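The genes described here, 10 of the 13931 genes in the deposited tables, act in the storage of lipid in droplets, in its release and in its exchange with the surroundings. They are Hilpda, Plin2, Plin3, Scarb1, Cd36, Lpl, Abcg1, Lipa, Pnpla2 and Mgll, taken by gene symbol, with the transcripts of each gene ID summed, and all 10 were found and passed the filter on low values (1 FPKM or more in at least 3 of 6 libraries). The libraries were made from C57BL/6 mouse lung preparations labelled alveolar epithelial type 2 (AT2) cells, 3 from mice exposed repeatedly to PBS and 3 from mice exposed repeatedly to bleomycin at 1 U/kg, an antibiotic that breaks DNA and injures the lung. The series names 3 mice in each group, and whether each library is 1 mouse is not stated. The sources used here do not give sex, age, further genotype, the way the cells were purified or when lungs were taken. The values are FPKM, fragments scaled by transcript length and by library size, and the read depth behind them is unknown. Values are given in the order of replicates 1, 2 and 3 of a group.

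Lipid droplets are stores of triglyceride and cholesteryl ester wrapped in a phospholipid layer, to which coat proteins of the perilipin family bind. Adipose triglyceride lipase, hormone-sensitive lipase and monoglyceride lipase strip fatty acids from triglyceride in turn, while lysosomal acid lipase works on lipid taken up from outside. AT2 cells use fatty acids to build surfactant phospholipid, and alveolar macrophages take up and break down spent surfactant.

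After bleomycin, 3 of the 10 genes rose and 1 fell, and 6 did not pass the test. Of the rises, that of Hilpda was tested only because its bleomycin libraries met the filter, so its call is no independent evidence of a difference; with no filter its limma adjusted p was 0.0100. Hilpda, which encodes a droplet protein that inhibits adipose triglyceride lipase, rose by 3.08 ± 0.53 (the difference of mean log2(FPKM + 1) with its SE; limma adjusted p = 0.00866). Abcg1, of a sterol exporter, rose by 2.87 ± 0.17 (limma adjusted p = 0.000169), and Scarb1, of the HDL receptor, by 0.94 ± 0.14 (limma adjusted p = 0.00475). Plin3, of a perilipin, fell by 0.70 ± 0.16 on the log2 scale (limma adjusted p = 0.0221). Of all 12326 genes tested, 22.5% passed, 15.2% higher and 7.34% lower, and with so few genes nothing particular to the 10 is read from their count of 4. The median log2 fold change was 0.28 over the 10 genes and 0.09 over all tested genes. Scaling the libraries to equal medians moved that median over all genes to -0.08, changed the calls over all genes from 1871 higher and 905 lower to 1447 and 1435, and kept the direction of each of the 10.

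**Figure D1:**
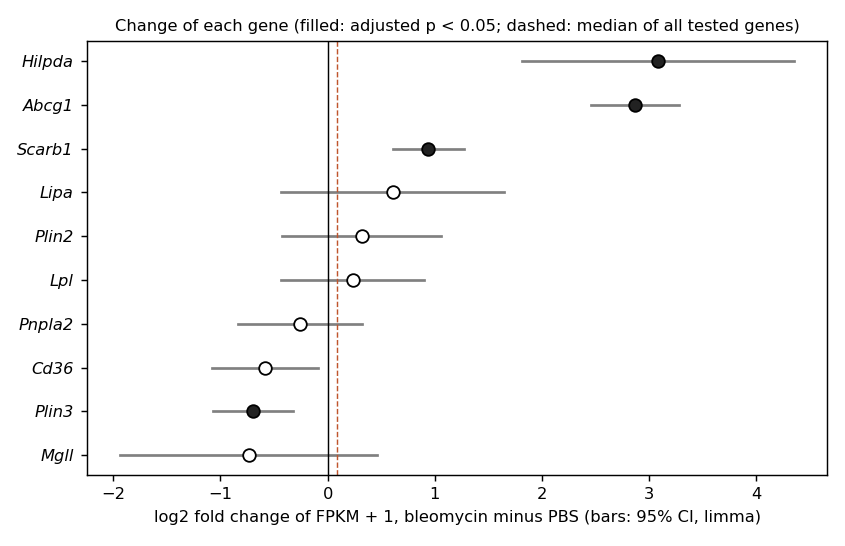
Log2 fold change of FPKM + 1, bleomycin minus PBS, on the x axis for each of the 10 genes on the y axis, with 95% confidence intervals from limma. Filled points passed an adjusted p of 0.05: Hilpda, Abcg1 and Scarb1 lie right of 0 and Plin3 left of it, while the intervals of Lipa, Plin2, Lpl, Pnpla2 and Mgll span 0 and that of Cd36 (-1.08 to -0.09) does not, though its adjusted p was 0.0879.

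The levels of marker lists of several cell types differed between the groups. Of 18 tested AT2 markers 16 fell and 0 rose, Cebpa of the full list stood at 0 in every library but bleomycin replicate 3 (42.8 FPKM), and their summed level was 19690 to 28210 FPKM with PBS and 3703 to 8219 with bleomycin. Of 16 alveolar macrophage markers 10 rose, with sums of 308.7 to 417.1 FPKM and 985.7 to 1571, or 169.2 to 231.2 and 489.5 to 704.7 without Ctsd, the most abundant of them. Of 17 tested markers of monocytes and recruited macrophages 11 rose, with overlapping sums of 358.6 to 971.7 and 479.5 to 1908 FPKM, and Ms4a7 of that list stood at 0 in every PBS library. Apoe was the largest part of these sums in every library. It measured 904.6, 312.3 and 317.2 FPKM with PBS and 292.9, 220.2 and 696.3 with bleomycin, and did not pass. Of 14 endothelial markers 11 rose (71.78 to 107.4 FPKM against 407.5 to 737.2), with Cldn5 at 0 in all PBS libraries, and the sums of 13 T and NK cell markers were 7.433 to 19.59 against 480.4 to 920 FPKM. A gene under 1 FPKM in every PBS library entered the test only through bleomycin and had to differ, which holds for 8 of these 13, 3 of the called alveolar macrophage markers, 3 of the called monocyte and recruited macrophage markers and 2 of the called endothelial markers. Of 14 tested fibroblast and lipofibroblast markers 6 fell and 0 rose (4033 to 5702 FPKM against 699.7 to 2493). All 10 B and plasma cell markers rose (17.22 to 30.16 FPKM against 521 to 987.1). Of 9 tested neutrophil markers 8 rose (219.7 to 228.8 FPKM against 601.2 to 898.7). Of these, 1 and 3 were tested only through bleomycin. Of 13 AT1 markers 2 fell and 0 rose, of 7 club and ciliated markers 1 rose, and of 5 tested erythroid markers 2 rose. In these bulk libraries fewer cells of a type and less RNA per cell cannot be told apart, and the part of these shifts in the results below was not tested.

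Plin2 and Plin3 encode perilipins found in most cell types, Plin2 bound to droplets nearly all the time and Plin3 moving between cytosol and droplet. Plin2 (ENSMUSG00000028494.12, mm10 chromosome 4, 86656565 to 86670060) measured 38.1, 61.4 and 38.7 FPKM with PBS and 46.5, 45.2 and 84.4 with bleomycin. The groups overlapped, PBS replicate 2 lying above bleomycin replicates 1 and 2, and the change of 0.32 ± 0.31 did not pass (limma adjusted p = 0.506, 95% interval -0.42 to 1.06). The highest value, in bleomycin replicate 3, came from the library that was also highest in the macrophage gene Cd68 (201.6 FPKM against 76.14 and 46.32 in the other bleomycin libraries), which was picked out after its values were seen. In that library 9 of 16 alveolar macrophage markers were at their lowest and 6 at their highest of the bleomycin libraries. Of 14 tested fibroblast and lipofibroblast markers 11 were at their highest there and 1 at its lowest. Of 17 tested markers of monocytes and recruited macrophages 10 were at their highest and 2 at their lowest. The part of any cell type in the level of Plin2 was not tested. Plin3 (ENSMUSG00000024197.9, mm10 chromosome 17, 56278962 to 56290511) measured 29.0, 27.3 and 27.4 FPKM with PBS and 14.8, 16.4 and 19.6 with bleomycin. All bleomycin values lay below all PBS values, and the mean was 1.65-fold lower. The call for Plin3 was narrow: omitting any PBS library, or else bleomycin replicate 1 or 2, gave limma adjusted p of 0.0597 to 0.0747, with log2 fold changes of -0.80 to -0.61 over all single omissions. The direction was lower in 3 of 3 bleomycin libraries.

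The balance of the perilipins was compared between the groups on the same per-length scale. The log2 ratio of Plin2 to Plin3, each as FPKM + 1, was 0.38, 1.14 and 0.48 with PBS and 1.59, 1.41 and 2.05 with bleomycin. The groups did not overlap, with a difference of 1.02 (two-sided exact permutation p = 0.10, the smallest that 3 libraries against 3 allow, and 0.133 adjusted over the 4 ratios computed).

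**Figure D2:**
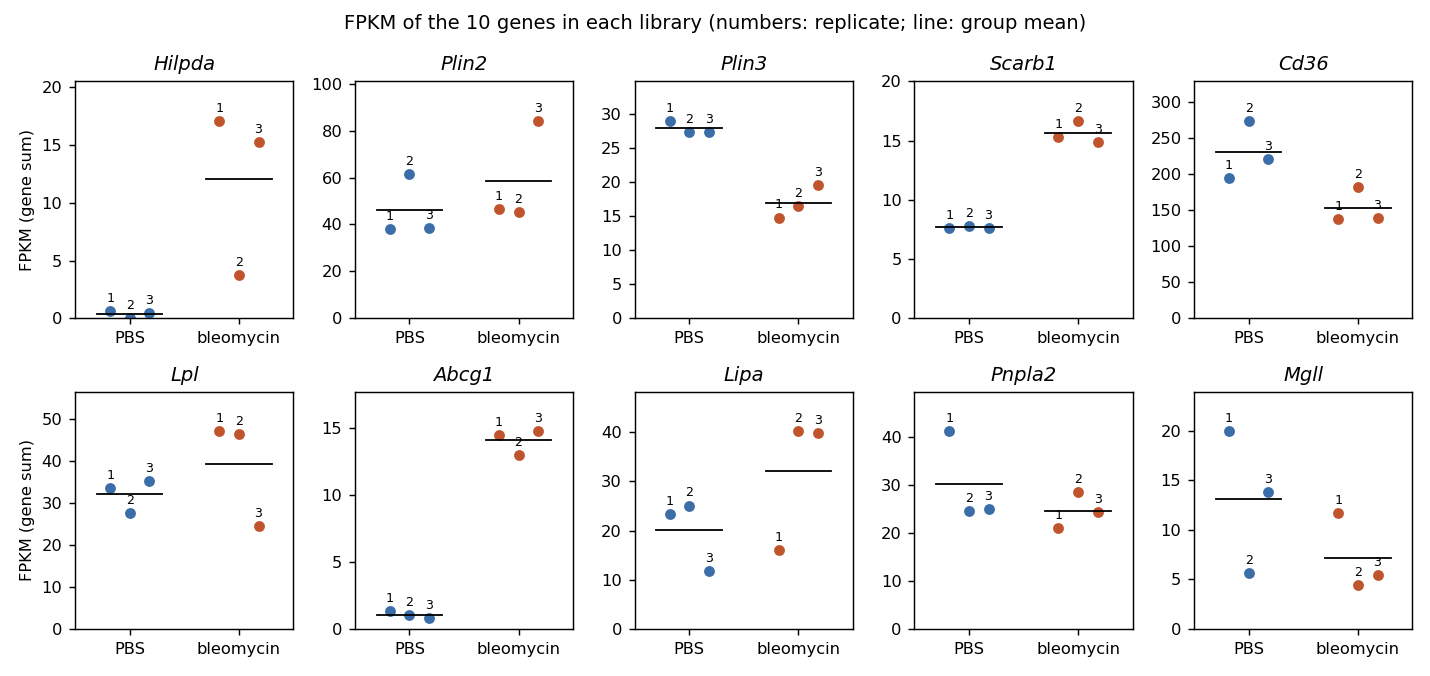
FPKM summed by gene on the y axis, from 0, for each of the 10 genes in 3 PBS and 3 bleomycin libraries on the x axis, with points numbered by replicate and lines at the group means. Hilpda, Abcg1 and Scarb1 have all bleomycin points above all PBS points, Plin3 and Cd36 have all below, and the other 5 overlap.

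Release of fatty acids begins with Pnpla2, the gene of adipose triglyceride lipase, and ends with Mgll, of monoglyceride lipase. Pnpla2 (ENSMUSG00000025509.15, mm10 chromosome 7, 141455198 to 141460743) measured 41.1, 24.6 and 25.0 FPKM with PBS and 20.9, 28.6 and 24.3 with bleomycin. Apart from PBS replicate 1 the values lay within the same range, and the change of -0.26 ± 0.24 did not pass (limma adjusted p = 0.49). Mgll (ENSMUSG00000033174.17, mm10 chromosome 6, 88724412 to 88828360) measured 19.9, 5.62 and 13.9 FPKM with PBS and 11.7, 4.44 and 5.46 with bleomycin. Its PBS libraries alone spanned more than the difference between the groups (-0.74 ± 0.50, limma adjusted p = 0.334, 95% interval -1.93 to 0.46). The log2 ratio of Pnpla2 to Mgll differed by 0.48 between groups that overlapped (exact permutation p = 0.50, the same adjusted over the 4 ratios).

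The split of Pnpla2 between its transcripts varied more among the PBS libraries. Pnpla2-005, which by GENCODE M21 has a shorter coding sequence (1290 bases against 1458 in Pnpla2-001), measured 7.88, 9.64 and 0.314 FPKM with PBS. It was listed at 0 in all 3 bleomycin libraries, where Pnpla2-001 held 94.5%, 91.8% and 98.5% of the gene's FPKM. With PBS its share was 78.7%, 42.8% and 95.9%, so that PBS replicate 3 lay within the bleomycin range. Pnpla2-001 itself measured 32.4, 10.5 and 23.9 FPKM with PBS and 19.8, 26.2 and 23.9 with bleomycin, and the groups overlapped. Pnpla2-005 did not reach the filter and was not tested, and these transcripts were picked out after their values were seen. Transcripts of a gene share most of their exons, so the authors' split between them is less certain than the gene sum.

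Hilpda (hypoxia inducible lipid droplet associated, ENSMUSG00000043421.8, mm10 chromosome 6, 29272488 to 29275446) encodes a small protein that binds adipose triglyceride lipase and slows lipolysis. It measured 0.582, 0 and 0.466 FPKM with PBS and 17.1, 3.75 and 15.3 with bleomycin. With PBS its mean ranked above 2.73% of tested genes and with bleomycin above 63.3%. The groups were far apart, but bleomycin replicate 2 was far below the other bleomycin libraries. The fold change depended on the added constant, with 4.90 at a pseudocount of 0.1 and 1.56 at 5, and passed under both. The log2 ratio of Hilpda to Pnpla2, of the inhibitor to the lipase, was -4.73, -4.68 and -4.15 with PBS and -0.27, -2.64 and -0.63 with bleomycin. That is a difference of 3.34 with no overlap (exact permutation p = 0.10, the smallest possible here, 0.133 adjusted over the 4 ratios). Pnpla2 changed little (-0.26), so the ratio largely restates the change of Hilpda, which was under 1 FPKM in every PBS library. It adds no independent evidence of a difference.

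Hilpda has a pair of listed transcripts with different starts and, by GENCODE M21, the same coding sequence of 192 bases. Hilpda-001, which starts at 29272626, measured 0.582, 0 and 0.466 FPKM with PBS and 1.64, 3.40 and 1.97 with bleomycin, and it rose by 1.30 ± 0.29 (limma adjusted p = 0.0316 over 17759 transcripts). Like the gene it was under 1 FPKM in every PBS library and was tested only through bleomycin. That call was lost without any 1 library (adjusted p 0.0522 to 0.0883), with a pseudocount of 0.1 (0.0803) and with quantile normalization (0.0894). Hilpda-002, which starts 5' of it at 29272488, was at or under 0.000371 FPKM in the PBS libraries and at 15.5, 0.348 and 13.3 with bleomycin. It was above 1 FPKM in too few libraries to be tested. In bleomycin replicates 1 and 3 it held 90.4% and 87.1% of the gene's FPKM, and in bleomycin replicate 2 it held 9.27%. The low gene sum of bleomycin replicate 2 was thus a low listed value of Hilpda-002, while Hilpda-001 was highest in that library. The pair also differ at the 3' end, listed at 29275446 for Hilpda-001 and 29275186 for Hilpda-002. As for Pnpla2, the split between transcripts that share exons is less certain than the gene sum.

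The promoter around both start sites is shown because the listed transcripts begin at different sites, with sequence from RefSeq on GRCm38.p6, chr6:29272376-29272635, plus strand, 5′ to 3′. The window runs from 250 bases before the start of Hilpda-001 to 10 bases from it, the start of Hilpda-002 is base 113 of it, and capitals mark ACGTG, the core of the hypoxia response element.
Hilpda: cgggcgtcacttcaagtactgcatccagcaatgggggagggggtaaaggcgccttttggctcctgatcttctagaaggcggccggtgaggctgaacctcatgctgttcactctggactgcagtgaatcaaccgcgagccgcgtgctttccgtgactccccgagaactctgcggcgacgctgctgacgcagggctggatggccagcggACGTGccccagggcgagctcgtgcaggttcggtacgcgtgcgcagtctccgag
The single ACGTG of the full RefSeq window lies 43 to 39 bases before the downstream start. The motif, searched on both strands, occurs in 19.6% of 32851 RefSeq promoter windows of 300 bases, and in 4 of 9 windows that belong to 7 of the 10 genes (Hilpda, Plin2, Cd36, Mgll, Pnpla2, Plin3 and Lipa). These 4 are windows of Hilpda, Plin2 and Mgll alone, those of Mgll beginning at 88724162 and 88724454. Plin2 and Mgll did not pass. CACGTG, the E-box, which contains ACGTG, occurs in 7.15% of all windows and in those of Plin2, across its start site, and of Mgll. TATAAA occurs in 13.6% of all windows and in that of Lipa, on the strand opposite to the gene, at -239 to -234 from its start site. Direct repeats of AGGTCA, 1 base apart as bound by PPAR and 4 bases apart as bound by the oxysterol receptor LXR, occur in 0.0396% and 0.0152% of windows and in none of the 9. A match is a description of the letters only.

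**Figure D3:**
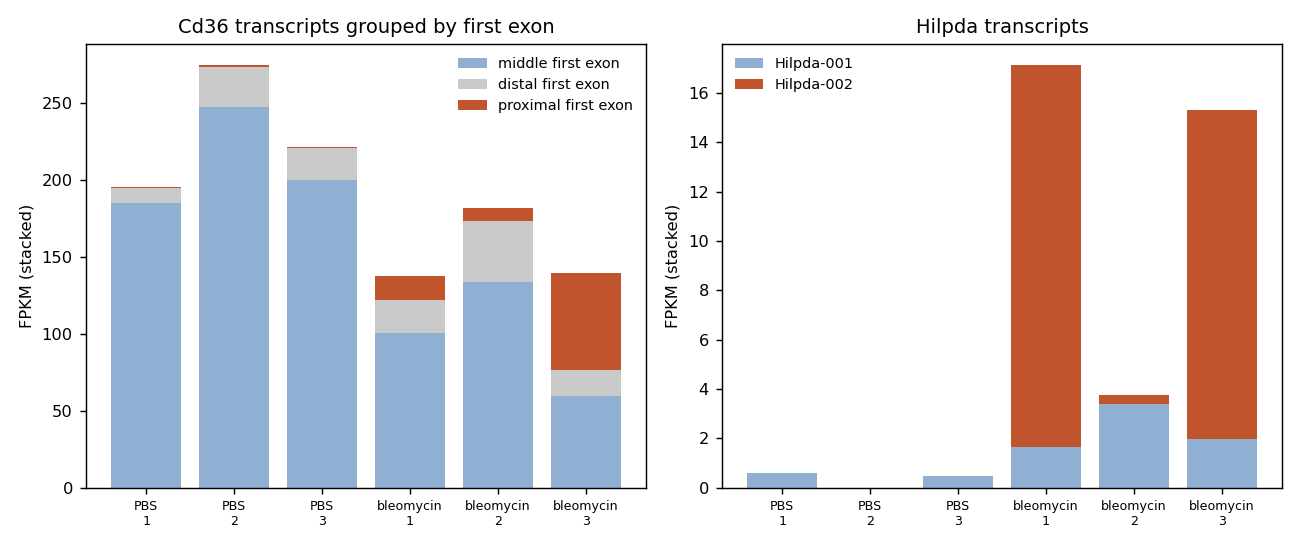
Stacked FPKM on the y axis, from 0, in each of the 6 libraries on the x axis, of Cd36 transcripts grouped by first exon (left) and of both Hilpda transcripts (right). Transcripts of Cd36 that begin at the proximal exon reach 63.0 FPKM in bleomycin replicate 3 and at most 1.18 with PBS, and Hilpda-002 makes up most of Hilpda in bleomycin replicates 1 and 3 only.

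Lipid enters a cell through Lpl, a secreted lipase that frees fatty acids from lipoproteins, Cd36, a fatty acid translocase and scavenger receptor, and Scarb1. Lpl (ENSMUSG00000015568.15, mm10 chromosome 8, 68880491 to 68906934) measured 33.6, 27.5 and 35.1 FPKM with PBS and 47.0, 46.3 and 24.4 with bleomycin. Bleomycin replicates 1 and 2 lay above and replicate 3 below all PBS libraries, and the change of 0.23 ± 0.28 did not pass (limma adjusted p = 0.591). Scarb1 (ENSMUSG00000037936.15, mm10 chromosome 5, 125277087 to 125341094) measured 7.62, 7.76 and 7.60 FPKM with PBS and 15.3, 16.7 and 14.9 with bleomycin. Scarb1 was thus 2.04-fold higher by group means, with a spread far smaller than the difference, and it passed without each single library (adjusted p 0.0128 to 0.0254). Its longer listed transcript, Scarb1-001, held 79.6% to 90.7% of its FPKM in every library.

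Cd36 (ENSMUSG00000002944.15, mm10 chromosome 5, 17781690 to 17888801) had the highest FPKM of the 10 genes in all 6 libraries, and its PBS mean lay above 98.8% of tested genes. It measured 195, 274 and 221 FPKM with PBS and 138, 182 and 139 with bleomycin. Every bleomycin value lay below every PBS value, yet the change of -0.59 ± 0.21 did not pass (limma adjusted p = 0.0879, 95% interval -1.08 to -0.09). With equal medians the adjusted p was 0.0472, and with the most abundant transcript alone it was 0.0396. Groups did not overlap for 5 of the 10 genes (3 above, 2 below) and for 43.6% of all tested genes (27.2% above, 16.4% below). The log2 ratio of Cd36 to Scarb1, both class B scavenger receptor genes, was 4.51, 4.97 and 4.69 with PBS and 3.09, 3.37 and 3.14 with bleomycin. It was lower by 1.52 on average (-1.52, exact permutation p = 0.10, the smallest possible here, 0.133 adjusted over the 4 ratios).

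The gene sum of Cd36 hid transcripts that moved in opposite directions. The 6 listed transcripts begin at 3 first exons, and by GENCODE M21 5 of them carry the same coding exons (1416 bases), so these differ outside the coding sequence. Transcripts with the middle first exon (17849657 to 17849792), Cd36-201 and Cd36-002, summed to 185, 247 and 200 FPKM with PBS and 101, 134 and 59.5 with bleomycin. They made up 94.8%, 90.1% and 90.4% of Cd36 with PBS and 73.0%, 73.4% and 42.8% with bleomycin. Transcripts that begin in the proximal exon (17835618 to 17835717), Cd36-003 and Cd36-004, summed to 0.847, 1.18 and 0.768 FPKM with PBS and 16.0, 8.47 and 63.0 with bleomycin. Their share of Cd36 was 0.434%, 0.430% and 0.347% with PBS and 11.6%, 4.66% and 45.3% with bleomycin, so that in bleomycin replicate 3 the proximal start carried more FPKM than the middle one. The distal exon (17888711 to 17888801), with Cd36-001 and Cd36-007, gave overlapping sums of 9.31 to 26.0 FPKM with PBS and 16.7 to 39.9 with bleomycin. The grouping by first exon was made after the transcript values were seen, and the split between transcripts is less certain than the gene sum.

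Among the single transcripts, Cd36-003 rose by 2.68 ± 0.47 (limma adjusted p = 0.0129) and Cd36-004 by 3.24 ± 0.79 (adjusted p = 0.0399), while Cd36-201 fell (-1.18 ± 0.30, adjusted p = 0.0445). Cd36-002, Cd36-007 and Cd36-001 had log2 fold changes of -1.12, 1.34 and 0.15 and did not pass (limma adjusted p of 0.0842, 0.0824 and 0.859). Cd36-003 and Cd36-004 were under 1 FPKM in every PBS library and entered the test only through bleomycin, so their calls give no support beyond the values above. The call of Cd36-003 held without each single library (adjusted p 0.00988 to 0.0498). That of Cd36-004 did not hold when any PBS library or bleomycin replicate 1 was omitted (0.0837 to 0.114), with a pseudocount of 5 (0.0995) or with quantile normalization (0.0534), and that of Cd36-201 did not hold without any 1 library (0.0509 to 0.121). Over the 10 genes 6 of 18 tested transcripts rose and 2 fell, where 10.8% and 3.97% of all tested transcripts did. Of these rises, Cd36-003, Cd36-004 and Hilpda-001 were tested only through bleomycin. Cd36 and Scarb1 each add several transcripts, which are not independent, so nothing particular to the 10 genes is read from this count. Bleomycin replicate 3, with the largest proximal share, also had the largest sum of monocyte and recruited macrophage markers (1908 FPKM against 706.2 and 479.5 in bleomycin replicates 1 and 2), with 10 of 17 tested markers at their highest there. Apoe (696.3 FPKM) and Gpnmb (651.4), neither of which passed, were the largest parts of that sum. Bleomycin replicate 3 was also highest of the bleomycin libraries in the sum of fibroblast and lipofibroblast markers (2493 FPKM against 699.7 and 1788). Of these markers 11 of 14 tested were at their highest in bleomycin replicate 3 and 1 at its lowest. The alveolar macrophage markers of that library went both ways, with the largest sum (1571 against 1030 and 985.7) but the smallest without Ctsd (489.5 against 704.7 and 668.0). Its AT2 markers had the smallest sum (3703 against 7746 and 8219). The part of cell make-up in the start site shares was not tested.

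The RefSeq promoter listed for Cd36 lies 5′ of this proximal exon, the nearest of the 3 first exons, and is shown for that reason. Whether the RefSeq transcript includes that exon is not shown here. The sequence is from GRCm38.p6, chr5:17835887-17836146, minus strand, 5′ to 3′. It runs from 250 bases before the RefSeq start, and capitals mark the 10 bases from that start on.
Cd36: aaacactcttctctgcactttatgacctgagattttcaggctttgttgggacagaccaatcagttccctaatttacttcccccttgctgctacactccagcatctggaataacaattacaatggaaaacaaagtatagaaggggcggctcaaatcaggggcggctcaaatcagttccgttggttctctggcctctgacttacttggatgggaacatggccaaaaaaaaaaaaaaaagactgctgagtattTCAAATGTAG
The RefSeq start, 17835896, lies 5′ of the starts of Cd36-003 and Cd36-004 in the files, 17835717 and 17835696. None of the 5 motifs searched occurs in its window of 300 bases.

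Lipa encodes lysosomal acid lipase, which frees fatty acids and cholesterol from lipid delivered to lysosomes, and Abcg1 exports sterol to HDL. Lipa (ENSMUSG00000024781.15, mm10 chromosome 19, 34492318 to 34527474) measured 23.4, 25.1 and 11.7 FPKM with PBS and 16.1, 40.2 and 39.8 with bleomycin. Bleomycin replicates 2 and 3 were high and replicate 1 fell within the PBS range, and the change of 0.61 ± 0.43 did not pass (limma adjusted p = 0.36, 95% interval -0.43 to 1.65). Abcg1 (ENSMUSG00000024030.6, mm10 chromosome 17, 31057698 to 31115777) measured 1.36, 1.01 and 0.850 FPKM with PBS and 14.5, 13.0 and 14.8 with bleomycin. Its group means differed 13.1-fold with no overlap, and it passed without each single library (adjusted p 0.00122 to 0.00154). The log2 fold change was 3.62 with a pseudocount of 0.1 and 1.65 with 5. In rank of level it moved from above 7.57% to above 68.6% of tested genes. Abcg1 is abundant in alveolar macrophages. Of their marker list Itgax measured 28.1 to 31.3 FPKM and Mrc1 13.7 to 20.0 with bleomycin, against means of 1.19 and 1.09 with PBS. Siglecf of the same list measured 1.78 to 2.08 FPKM with bleomycin. Over that list 10 of 16 rose and 6 did not pass, among them Marco (1.065 to 2.225 FPKM with bleomycin) and Ear2 (log2 fold change -0.42). Markers of other cell types rose too, and the part of any cell type in the level of Abcg1 was not tested.

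By mean FPKM with PBS, the order was Cd36 (230 ± 40.4, mean ± SD, n = 3), Plin2 (46.1 ± 13.3), Lpl (32.1 ± 4.02), Pnpla2 (30.2 ± 9.43), Plin3 (27.9 ± 0.936), Lipa (20.1 ± 7.27), Mgll (13.1 ± 7.18), Scarb1 (7.66 ± 0.0866), Abcg1 (1.07 ± 0.263) and Hilpda. The library values of neighbours overlapped for Lpl and Pnpla2, Pnpla2 and Plin3, Lipa and Mgll, and Mgll and Scarb1, and not for the other neighbours. With bleomycin the order was Cd36 (153 ± 25.1), Plin2 (58.7 ± 22.2), Lpl (39.3 ± 12.9), Lipa (32.0 ± 13.8), Pnpla2 (24.6 ± 3.84), Plin3 (16.9 ± 2.44), Scarb1 (15.6 ± 0.956), Abcg1 (14.1 ± 0.933), Hilpda (12.1 ± 7.25) and Mgll (7.19 ± 3.91). There neighbours overlapped except Cd36 and Plin2, Pnpla2 and Plin3, and Scarb1 and Abcg1, the last by a narrow margin. The 10 genes together summed to 382 to 454.7 FPKM with PBS and 341.5 to 396.4 with bleomycin, with Cd36 as the largest part.

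Other genes of the pathway were taken from 5 lists written with earlier results of these data known, and 97 of 110 listed symbols are in the files. Of 87 tested, 14 rose, 12 fell and 61 did not pass, beside 15.2% higher and 7.34% lower over all genes. Of the 14 that rose, 6 (Plin5, Cidec, Msr1, Stab1, Apoc2 and Ppargc1b) were under 1 FPKM in every PBS library, so they could be tested only where bleomycin was high and had to differ. In the droplet coat and biogenesis list 2 of 16 rose and 2 fell, with a median of -0.17. Both rises were in genes of that kind, the perilipin gene Plin5 (0.828 ± 0.124 to 2.21 ± 0.553 FPKM, log2 fold change 0.80) and Cidec, which fuses droplets (0.497 ± 0.251 to 1.72 ± 0.358 FPKM, 0.87). Soat1, which esterifies cholesterol for storage, fell from 51.8 ± 6.85 to 24.8 ± 4.99 FPKM (-1.04), and Pcyt1a, of phosphatidylcholine synthesis, from 25.1 ± 3.12 to 6.37 ± 3.16 (-1.89). Dgat1 and Dgat2, which make triglyceride, had log2 fold changes of 0.07 ± 0.19 and 0.11 ± 0.29 and did not pass (limma adjusted p of 0.827 and 0.824), and both were below 0 with equal medians or quantile normalization. The call of Plin5 did not hold when any PBS library or bleomycin replicate 1 was omitted (0.0578 to 0.0789) and with equal medians (0.0523). That of Cidec, also a marker on the alveolar macrophage list, did not hold without PBS replicate 1, PBS replicate 2, bleomycin replicate 1 or bleomycin replicate 3 (0.0571 to 0.0762), and both were lost with quantile normalization (0.149 and 0.168).

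In the list of lipolysis and its regulators 3 of 14 rose and 2 fell, with a median of 0.10. G0s2, like Hilpda an inhibitor of adipose triglyceride lipase, measured 156, 91.4 and 131 FPKM with PBS and 30.3, 38.8 and 47.9 with bleomycin (-1.66 ± 0.26, limma adjusted p = 0.00608). G0s2 and Hilpda thus moved in opposite directions, with G0s2 the higher in every library. Abhd5, the lipase's coactivator, and Lipe, of hormone-sensitive lipase, had log2 fold changes of -0.44 ± 0.25 and 0.02 ± 0.16 and did not pass (limma adjusted p of 0.248 and 0.952), though Abhd5 had an adjusted p of 0.0467 without bleomycin replicate 3. Lipe lay below 0 with equal medians, quantile normalization or its most abundant transcript alone. Pde3b, a phosphodiesterase that restrains lipolysis, rose from 1.09 ± 0.384 to 8.07 ± 1.64 FPKM (2.12), Pnpla7, of a lysophospholipase, by 1.82 and Abhd12, of a lysophosphatidylserine lipase, by 0.75. Ces1d, of a carboxylesterase with near copies in its gene cluster, which can share reads, changed by -1.03. The call of Abhd12 did not hold without PBS replicate 2, PBS replicate 3 or bleomycin replicate 1 (0.0552 to 0.061), and that of Ces1d without PBS replicate 1, PBS replicate 2 or bleomycin replicate 1 (0.0579 to 0.0615).

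In the list of lipoprotein lipolysis and lipid uptake 4 of 23 rose and 4 fell, with a median of -0.55. Gpihbp1, the endothelial anchor of lipoprotein lipase, rose from 3.55 ± 0.854 to 24.3 ± 9.71 FPKM (2.43 ± 0.30, limma adjusted p = 0.00235), beside the endothelial marker sums given above, of which it is itself a member. The scavenger receptor genes Msr1, Cd68 and Stab1 rose by 2.30, 3.29 and 2.03, Msr1 and Stab1 with the limit of the filter just given and Cd68 being also on the list of recruited macrophages. Among the 4 that fell were Vldlr (-1.09), of a lipoprotein receptor, and Slc27a4 (-0.69) and Acsl5 (-0.77), which activate fatty acids for use. Angptl4, a secreted inhibitor of lipoprotein lipase, measured 10.7, 33.6 and 15.0 FPKM with PBS and 2.30, 8.90 and 5.89 with bleomycin and did not pass (-1.62 ± 0.53, limma adjusted p = 0.0731). Each of these 3 falls lost its call without several single libraries. These were PBS replicates 1 and 3 and bleomycin replicates 1 and 2 for Vldlr (0.0524 to 0.0689), PBS replicates 1 and 2 and any bleomycin library for Slc27a4 (0.0942 to 0.115), and any PBS library and bleomycin replicates 1 and 3 for Acsl5 (0.0632 to 0.116). With its most abundant transcript alone Vldlr had an adjusted p of 0.209.

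In the list of sterol efflux and lysosomal lipid 2 of 16 rose and 2 fell, with a median of 0.07. Abca1, the partner of Abcg1 in sterol export, measured 9.69, 6.27 and 11.8 FPKM with PBS and 9.72, 10.6 and 13.5 with bleomycin, and the change of 0.29 ± 0.25 did not pass (limma adjusted p = 0.461, 95% interval -0.32 to 0.89). The difference between the changes of Abcg1 and Abca1 was not tested. Apoc2, the activator of lipoprotein lipase, was listed at 0, 0 and 0.255 FPKM with PBS and at 13.1, 7.17 and 6.74 with bleomycin. Psap, of the saposin precursor, rose by 1.46, with log2 fold changes of 1.01 to 1.77 over all single omissions. Its call did not hold when any PBS library or bleomycin replicate 1 was omitted (0.0739 to 0.109) or with equal medians (0.0575). Npc2, a lysosomal carrier of cholesterol, and Smpd1, of acid sphingomyelinase, changed by -0.98 and -0.93. The call of Npc2 did not hold without PBS replicate 1, PBS replicate 2 or bleomycin replicate 2 (0.0503 to 0.0556) and that of Smpd1 when any PBS library, bleomycin replicate 1 or bleomycin replicate 3 was omitted (0.0513 to 0.0919).

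Among 18 tested regulators 3 rose and 2 fell, with a median of 0.02. Pparg, a receptor for fatty acids that drives Plin2, Cd36 and Lpl in macrophages and fat cells, rose from 2.37 ± 0.627 to 7.97 ± 1.36 FPKM (1.42 ± 0.22, limma adjusted p = 0.0054). With its most abundant transcript alone the adjusted p was 0.189. Srebf1, the regulator of fatty acid synthesis, changed by -1.18 and Bnip3, a hypoxia-induced mitophagy gene, by -0.80. Ppargc1b, tested only through bleomycin, and the hypoxia-induced Ankrd37, over 1 FPKM in 1 PBS library, rose by 0.70 and 1.25, the first with its call lost when any PBS library or bleomycin replicate 2 was omitted (0.057 to 0.0678) and the second without any library but bleomycin replicate 3 (0.0789 to 0.136). With quantile normalization neither passed (0.407 and 0.156), and Ankrd37 also missed with a pseudocount of 5, no filter, equal medians or its most abundant transcript alone (0.0531 to 0.0759).

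**Figure D4:**
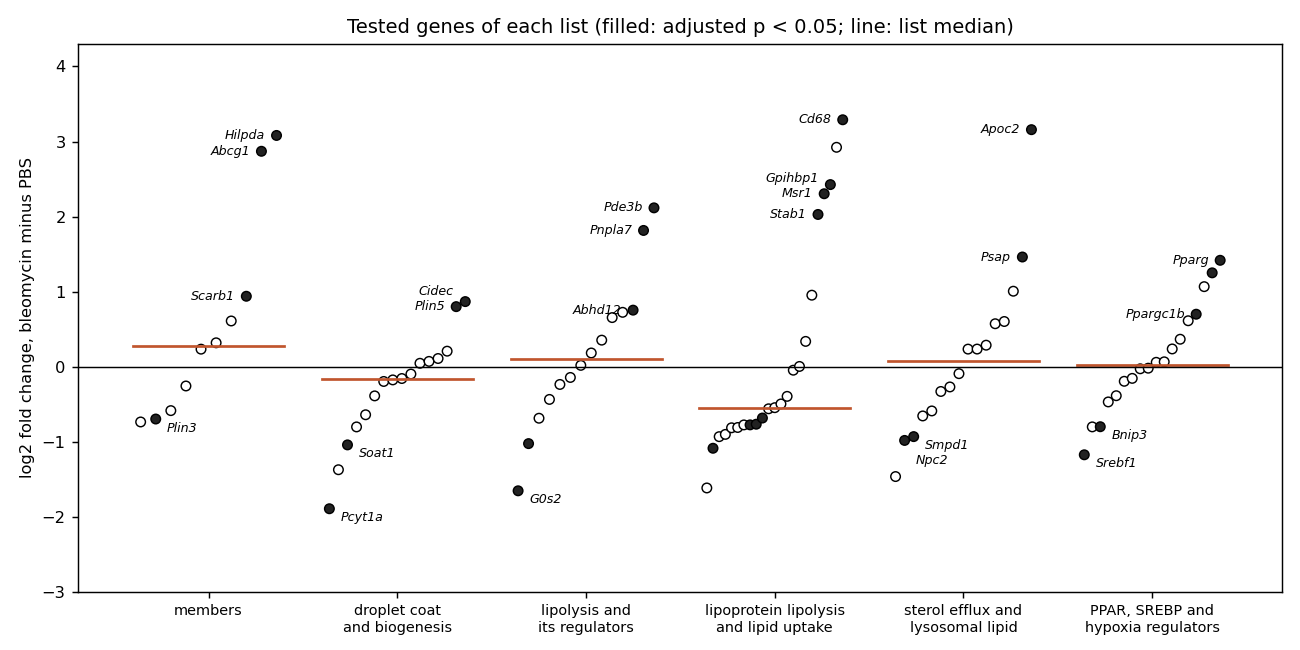
Log2 fold change, bleomycin minus PBS, on the y axis for every tested gene of the 10 genes described here (labelled members) and of 5 pathway lists on the x axis, with filled points for an adjusted p under 0.05, named where the naming rule took the gene, and lines at the list medians. Each list holds rises and falls, with Cd68, Apoc2 and Hilpda highest and Pcyt1a lowest among the points that passed.

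The gene most like each of the 10 over the 6 libraries was taken by Pearson's r of log2(FPKM + 1), which is a description over 6 points that share a group difference. For Hilpda it was Msr1 (r = 0.996), the macrophage scavenger receptor gene, at 0.124, 0 and 0.213 FPKM with PBS and 6.62, 1.78 and 6.75 with bleomycin. Both were lowest of the bleomycin libraries in replicate 2. It was Stk10 for Abcg1 (0.999), Akna for Scarb1 (1.0), Igfbp3 for Plin3 (0.997) and Prkg2 for Cd36 (0.993). For the genes that did not pass it was Calhm2 for Plin2 (0.988), Mcee for Lpl (0.99), Dr1 for Lipa (0.986), Prodh for Pnpla2 (0.99) and Isoc2a for Mgll (0.987). An r above 0.95 was reached by 1062 tested genes with Abcg1, by 1018 with Scarb1, by 301 with Hilpda and by 7 with Plin2.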

How the data were processed

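RNA was sequenced from 3 PBS and 3 bleomycin AT2 preparations, with groups and replicate numbers from the sample titles. TRIzol and a KAPA stranded kit were used per the labels' protocols, and HISAT2, StringTie and FastQC 0.10.1 with build mm10 are named per the submitters' processing notes, while the sources used here do not give annotation or settings. For each library the authors deposited an FPKM value per transcript for 24647 transcripts of 13931 genes, per the file headers. The listed values sum to 253146 to 300697 FPKM per library. Depth and counting error are unknown, and an exact 0 can be a failed estimate.

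Transcripts were summed by gene ID. The 12326 genes that reached 1 FPKM in 3 or more libraries were tested on log2(FPKM + 1), on which scale all fold changes stand and which understates low genes, with limma 3.58.1 in R 4.3.3 (lmFit and eBayes with a mean-variance trend, no covariate, two-sided, Benjamini-Hochberg adjustment over all genes, threshold 0.05). Transcripts were tested alike. Ratios were tested by exact permutation over libraries. The 10 genes and all lists were chosen with earlier results of these data known. Named genes are the 10, up to 4 of each list by adjusted p, 9 fixed pathway genes and, for completeness, other list genes that passed, of which 1 is not reported here. The p-values measure the spread between these libraries, whose link to single mice is not stated. Alternatives covered the pseudocount, filter, scaling, transcript sum, variance model, library weights, replicate block and each library left out.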

Additional observations from a re-analysis of the deposited data

How the results depend on the processing

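Over 16 alternative settings the 3 rises of Hilpda, Abcg1 and Scarb1 passed wherever these genes were tested. Hilpda was not tested with a filter of 5 FPKM or with the most abundant transcript alone, which left 2 rises. Of 158 values for the 10 genes, 149 kept direction and side of the threshold. The fall of Plin3 passed alone in the main test; 2 falls were counted with equal medians and with the most abundant transcript alone, where Cd36 passed, 0 with the replicate block (Plin3 adjusted p = 0.0655), and 0 to 1 without single libraries. Pnpla2 turned to 0.18 with the most abundant transcript alone.

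Of all genes, 905 fell in the main test, 1435 with equal medians, 1441 with quantile normalization, 563 with the replicate block and 457 to 873 without single libraries. Of the pathway lists, 14 rose and 12 fell; 8 rose with a filter of 5 FPKM and 8 to 16 without single libraries, and 19 fell with equal medians and 5 to 14 without single libraries. With quantile normalization 18 fell, and 8 fell with the most abundant transcript alone. Of the transcripts of the 10 genes, 6 rose and 2 fell; 2 rose with a filter of 5 FPKM or the replicate block, 3 with quantile normalization and 2 to 4 without single libraries. For falls among them, 1 was counted with a pseudocount of 0.1, no filter or the replicate block, 3 with quantile normalization, 0 with eBayes without trend and 0 to 1 without single libraries. The cause was not tested.

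Values near 0 changed sign. With equal medians, Dgat1, Dgat2, Lipe and Cd36-001 were at -0.10, -0.062, -0.15 and -0.019, and with quantile normalization the first 3 were at -0.10, -0.12 and -0.14. Lipe was at -0.29 with the most abundant transcript alone. Single libraries left out gave -0.073 to 0.21 for Dgat1, -0.091 to 0.38 for Dgat2, -0.077 to 0.069 for Lipe and -0.25 to 0.46 for Cd36-001.

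With the most abundant transcript alone Acsl5, Slc27a4 and Psap missed the threshold (adjusted p 0.0524 to 0.0575), as did Smpd1 with array weights (0.0534). Of 26 pathway genes that passed, 13 kept the call without each single library. Whether libraries with the same replicate number belong together is not stated. Deviations from group means of same-numbered libraries correlated at -0.004, 0.017 and 0.039 over genes. Not every library correlated best with its own number (PBS replicate 2 and bleomycin replicate 1 at 0.021). Deviations within a group cancel by construction, which ties these correlations to each other, so they cannot decide whether the libraries are paired. With the block Angptl4 passed (adjusted p = 0.0143).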
